A study of Rattus norvegicus with 16 samples.

Results

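Complement, coagulation and fibrinolysis genes were followed in the livers of male Lewis rats aged 3, 9, 12, 18 and 24 months. The set held 48 genes, 24 of complement and 24 of coagulation and fibrinolysis, taken as the probes whose gene name on the array was that of a member. All 48 were on the array, among 35071 gene names, and 47 lay well above background on each of the 16 arrays (C1qa lacks 1 value for an outlier flag), among 21452 genes that passed the same filter. The exception was Plat, tissue plasminogen activator, which was well above background on 1 of 16 arrays and is not described further. There were 3 samples at each age from 3 to 18 months and 4 at 24 months, with 1 one-colour array for each sample. No rat carried a mutation or received a treatment by the labels, the animals were kept free of specific pathogens and fed freely, and liver was snap-frozen. The labels number the samples within an age but do not say that each came from its own animal, so p-values measure the spread between these samples. They name a microRNA labelling kit for an array that reads mRNA. Of 10 hepatocyte markers, 10 were well above background on all 16 arrays.

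An array had from 52.5% to 65.2% of its probes well above background, and 0 spots were saturated. The 75th percentile of an array's signal ran from 171 to 412 intensity units. On slide 1 lay all 3-month arrays and 9-month replicate 2. Slide 2 held the other 9-month arrays and 12-month replicate 2, slide 3 the other 12-month arrays, and slide 4 the 18-month arrays alone. The 24-month arrays lay on slides 5, 6 and 7, so that age, like 18 months, shared a slide with no other age. Arrays on slides 1 and 2 were scanned on day 1, the 24-month arrays on day 2, and those on slides 3 and 4 on day 3. Days 1 and 2 belong to scan session 1 and day 3 to session 2. Age and scan day therefore cannot be told apart at 24 months. Replicate 2 of 12 months and replicates 3 and 4 of 24 months stood apart, with mean correlations to the other arrays of their age of 0.962, 0.970 and 0.969. The other arrays of these ages had 0.973 to 0.976, so the gap at 24 months was small, and those of 3, 9 and 18 months 0.988 to 0.994.

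Complement is a cascade of plasma proteases that ends in a pore in the membrane of a target cell. It starts through C1 bound to antibody, through mannose-binding lectins with their proteases, or through the alternative pathway of factors B and D, and the routes meet at C3. Coagulation is a second protease cascade, in which thrombin turns fibrinogen into fibrin, and plasmin dissolves the clot. Hepatocytes make most of these plasma proteins, and several are acute phase proteins that rise in inflammation. C1q comes mainly from macrophages, in liver the Kupffer cells, and factor VIII from sinusoidal endothelium.

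Signal is given as log2, less the 75th percentile of its own array, so that 0 is that percentile and a step of 1 is a doubling. Differences between ages are on the same log2 scale, with a standard error (SE) from the limma fit. A gene was called when limma's adjusted p, taken over all 21452 genes, was under 0.05. Signals of different probes were not compared as levels. In whole liver, fewer cells of a type and less RNA per cell cannot be told apart.

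The 60-base probes that carry the main results are given here 5′ to 3′ in lower case, as the array files hold them, with their rn4 positions. The probes of C1r, C9, Cfd and Plau carried changes between 3 and 9 months. The Fgb probes are shown because they disagreed, the third being the one without a position in rn4. The C9 probe matches across a gap, and its position covers 4943 bases from the first to the last base matched.
C1r, chr4:160728630-160728689, plus strand: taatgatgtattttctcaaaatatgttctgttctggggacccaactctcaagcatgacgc
C9, chr2:55784980-55789922, plus strand: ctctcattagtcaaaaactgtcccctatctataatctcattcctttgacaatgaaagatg
Cfd, chr7:11325547-11325604, minus strand: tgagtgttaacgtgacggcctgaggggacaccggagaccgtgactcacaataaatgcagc
Plau, chr15:3680711-3680770, minus strand: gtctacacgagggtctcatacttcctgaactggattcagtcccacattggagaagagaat
Fgb, A_43_P10037, chr2:174768230-174768289, minus strand: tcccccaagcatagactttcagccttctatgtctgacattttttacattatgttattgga
Fgb, A_44_P1044835, chr2:174768507-174768748, minus strand: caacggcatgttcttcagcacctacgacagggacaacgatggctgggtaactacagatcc
Fgb, A_44_P226859: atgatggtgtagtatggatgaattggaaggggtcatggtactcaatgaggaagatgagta

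From 3 to 9 months C1r, C9, C4bpa and Plau fell and Cfd rose. At 24 months C1r, C3, C9, Cfb, C4bpa and Mbl2 lay below their 3-month levels and Cfd and F8 above. From 18 to 24 months the genes of C1q, C1r and C1s rose with C9, F8, F10 and Plau, while Cfb, F11 and Klkb1 fell. Fibrinogen, prothrombin and the antithrombin and protein C anticoagulants were called in no comparison. Over any age difference, limma's F test called 18 of 47 members, 38.3% against 37.5% of all genes, of which 12 were among 24 complement genes and 6 among 23 of coagulation and fibrinolysis. Whether these shares differ was not tested. The F test calls were C1qb, C1r, C1s, C2, C3, C4a, C8b, C9, Cfb, Cfd, C4bpa, Mbl2, F3, F8, F10, Plau, Kng1 and Klkb1.

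For 9 against 3 months, 5 of 47 members were called, against 5.14% of all genes. Of the 5, 4 were lower, against 3.2% of all genes, and 1 higher, against 1.94%. The median change of the members was -0.10, beside 0.04 over all genes, and 31 of 47 were negative, or 66%, beside 44.2% of all genes. For 24 against 3 months, 8 of 47 members were called, against 13.3% of all genes. Of these, 6 were lower, against 9.09% of all genes, and 2 higher, against 4.24%. The median change was -0.25, beside -0.04 over all genes. A negative change was seen in 39 of 47 members, beside 54.4% of all genes. For 24 against 18 months, 12 of 47 were called, or 25.5%, and 25.8% of all genes were. Of the 12, 9 were higher, against 10.8% of all genes, and 3 lower, against 15%. The step from 9 to 12 months called 1 member, F3, against 6.27% of all genes, with 3.17% higher and 3.1% lower. From 12 to 18 months limma called 0 members, against 1.39% of all genes (1.07% higher and 0.322% lower), with 4 members, and 18.3% of all genes, at an unadjusted p under 0.05.

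**Figure D1:**
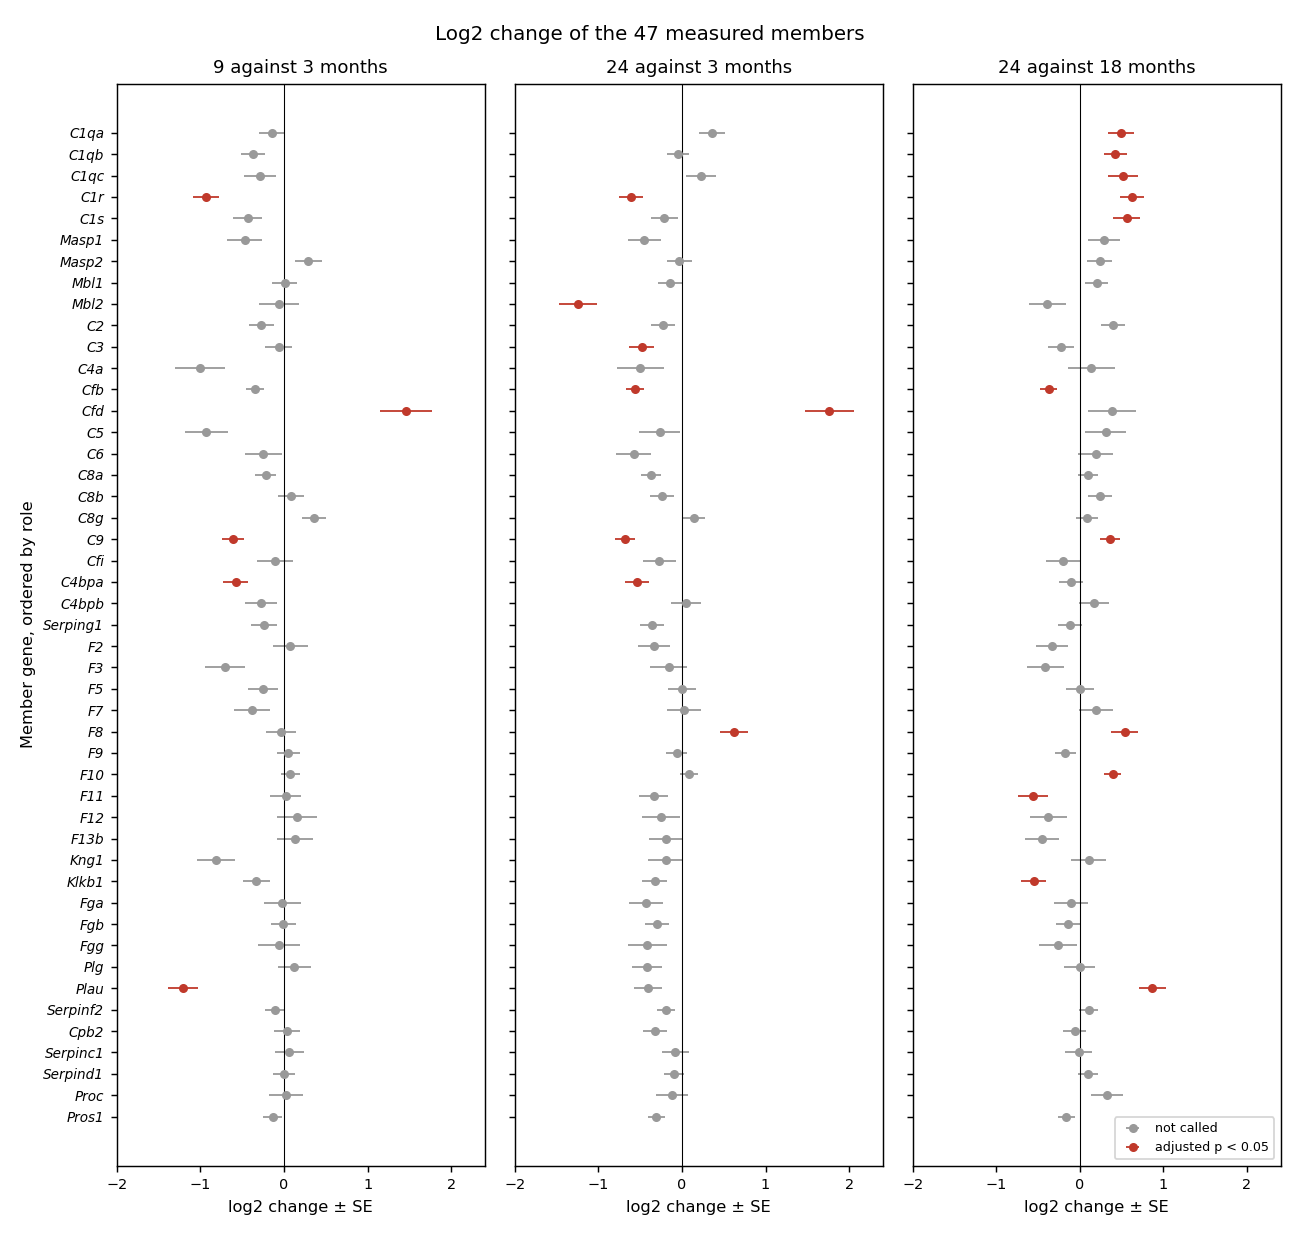
Log2 change of each of the 47 measured members (rows, ordered by role) with its SE from limma, for 9 against 3, 24 against 3 and 24 against 18 months; red points were called at an adjusted p under 0.05 over all genes. Points lie mostly left of 0 at 24 against 3 months (39 of 47), and the C1q, C1r and C1s points lie right of 0 at 24 against 18 months.

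These counts rested on few arrays and on the slides. With slide as a random block (correlation between arrays of a slide 0.687), limma called 0 members for 24 against 3 months and 0 for 24 against 18 months. Over all genes it called 1.45% and 4.55%, beside 13.3% and 25.8% without the block. The adjusted p of the calls then ran from 0.0739 to 0.314 and from 0.137 to 0.5, and 11 and 5 members had an unadjusted p under 0.05, beside 13.5% and 16.2% of all genes. This block also ended 8 of the 18 F test calls, those of C1qb, C2, C3, C8b, Cfb, F10, Kng1 and Klkb1 (limma adjusted p from 0.0538 to 0.22). With the same block, the count was 9 for 9 against 3 months, beside 9.57% of all genes, and 13 for 12 against 9 months, beside 22.4%. For 9 against 3 months, 2 members were called without 3-month replicate 1 or 2 or 9-month replicate 3. Without 3-month replicate 3 or 9-month replicate 2 it was 3, and without 24-month replicate 3 it was 8. For 24 against 3 months, 4 were called without 3-month replicate 1 or 2, 5 without 3-month replicate 3 or 24-month replicate 1, and 15 without 24-month replicate 4. For 24 against 18 months, 2 were called without 18-month replicate 3, 5 without 18-month replicate 1 and 7 without 24-month replicate 3. Without the 3 arrays that stood apart, 15, 21 and 17 members were called in these 3 comparisons, beside 15.2%, 23.8% and 35.6% of all genes. The F test called from 9 (without 9-month replicate 3) to 27 (without 24-month replicate 4). It called 10 without 3-month replicate 2 or 18-month replicate 3, and 11 without 3-month replicate 1 or 3 or 9-month replicate 2. In each of these F test fits the calls over all genes moved the same way, so the shifts were not limited to the members. Shares of all genes are not given for the counts between pairs of ages without a single array. Whether those shifts were particular to the members cannot be read from them.

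Of the 26 calls between pairs of ages, 8 held without any single array: C1r and Plau for 9 against 3 months, C9, Cfb, Cfd and Mbl2 for 24 against 3 months, and C1r and Plau for 24 against 18 months. Quantile normalization ended 11 of the 26 calls, use of the authors' series table ended 12 and normexp background correction 17, the C1q calls among them each time. C1r at 24 months, against 3 and against 18 months, was not called after quantile normalization or in the series table. C9 for 24 against 3 months was not called in the series table. Normexp ended the calls of C9, C4bpa and Plau for 9 against 3 months. With scan session as a block, 10 of the 12 calls for 24 against 18 months were lost, all but C1s and C9. No direction of the 26 calls turned under these alternatives, though leaving out an array of an age outside a comparison cannot turn it.

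Of the complement genes, those of the C1 complex came first in the cascade. C1r is the protease that activates C1s. Its values were 7.89, 7.88 and 7.89 at 3 months and 6.98, 7.0 and 6.90 at 9 months. The later values were 7.06, 7.13 and 6.80 at 12 months, 6.59, 6.61 and 6.77 at 18 months, and 7.22, 7.20, 7.68 and 7.02 at 24 months. Every 3-month array lay above every later array. C1r fell by 0.93 on the log2 scale from 3 to 9 months (SE 0.15; limma adjusted p = 0.00368), and the call held without any single array. At 24 months it was 0.61 below 3 months, a change of -0.61 (SE 0.14; limma adjusted p = 0.013, and 0.259 with slide as a block). That call was lost without 3-month replicate 1 or 2. From 18 to 24 months C1r rose by 0.62 (SE 0.14; limma adjusted p = 0.00595, and 0.193 with slide as a block), and these ages did not overlap.

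C1s, which cleaves C4 and C2 once active, had 3-month values of 6.75, 6.86 and 6.75. Its 9-month values were 6.34, 6.45 and 6.27, and its 12-month values 5.71, 6.13 and 6.21. At 18 months it read 5.97, 5.95 and 6.13, and at 24 months 6.47, 6.51, 7.01 and 6.33. Its lowest means were those of 12 and 18 months. C1s rose by 0.56 from 18 to 24 months (SE 0.16; limma adjusted p = 0.0208), a call lost without 18-month replicate 1 or 3 and with slide as a block (adjusted p = 0.241). Its change from 3 to 9 months was -0.44 (limma adjusted p = 0.191). The probes of C1r and C1s lie within 8.15 kb of each other on rat chromosome 4, on opposite strands.

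C1qa, C1qb and C1qc encode the 3 chains of C1q, the part of C1 that recognises bound antibody. Their probes lie within 15.1 kb on chromosome 5. C1qa read 5.48, 5.41 and 5.42 at 18 months and 5.94, 6.28 and 5.56 on 24-month replicates 1, 3 and 4. The value of 24-month replicate 2 was missing because its spot carried an outlier flag, so the 24-month mean of C1qa has n = 3. C1qb read 6.60, 6.47 and 6.89 at 18 months and 7.11, 7.10, 7.25 and 6.85 at 24 months, with an overlap at 1 array. C1qc read 2.86, 2.85 and 2.96 against 3.30, 3.64, 3.70 and 2.97, and the highest 18-month value was close to the lowest 24-month value. The rises were 0.49 for C1qa, 0.42 for C1qb and 0.51 for C1qc, with limma adjusted p of 0.0357, 0.0346 and 0.0496. With slide as a block these p were 0.321, 0.471 and 0.5. Without 24-month replicate 3, the highest array for all 3 chains, the changes were 0.32, 0.37 and 0.41 with limma adjusted p of 0.116, 0.0762 and 0.115. The C1qa call was also lost without any 18-month array, 3-month replicate 2 or 3, 9-month replicate 1 or 24-month replicate 1. That of C1qb was also lost without 18-month replicate 1 or 3 or 24-month replicate 1 or 2. That of C1qc was lost without any 3-month or 18-month array, 9-month replicate 1 or 3, 12-month replicate 4 or 24-month replicate 1 or 2. The F test call of C1qb (limma adjusted p = 0.0346) was lost without any 3-month or 9-month array, 18-month replicate 1 or 3 or 24-month replicate 1 or 2. Against 3 months, the 24-month changes were 0.36, -0.05 and 0.23, and none was called. A second C1qa probe changed by 0.49 from 18 to 24 months (limma adjusted p over probes = 0.0554) and a second C1qc probe by 0.23 (0.469).

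Macrophage markers were read beside the C1q genes. Of 8 measured Kupffer cell and macrophage markers, 4 rose from 18 to 24 months (Cd68, Clec4f, Marco and Timd4) and 0 fell. Of all genes, 10.8% rose and 15% fell in that step. Mrc1 changed by -0.06 and Csf1r by 0.09 in that step. From 3 to 9 months Cd163 and Vsig4 rose by 1.24 and 1.65 and Timd4 fell, while C1qa, C1qb and C1qc, not called, changed by -0.14, -0.37 and -0.29. The mean of the 8 ran from 1.26 to 1.58 over the 18-month arrays and read 2.10, 1.92, 2.35 and 1.53 on the 24-month arrays. The array with the highest marker mean, 24-month replicate 3, also had the highest value of each C1q chain. T and NK cell markers rose too, 5 of 6 from 18 to 24 months, with means from -2.34 to -2.0 and from -0.64 to 0.73. The part of these cells in the C1q result was not tested.

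**Figure D2:**
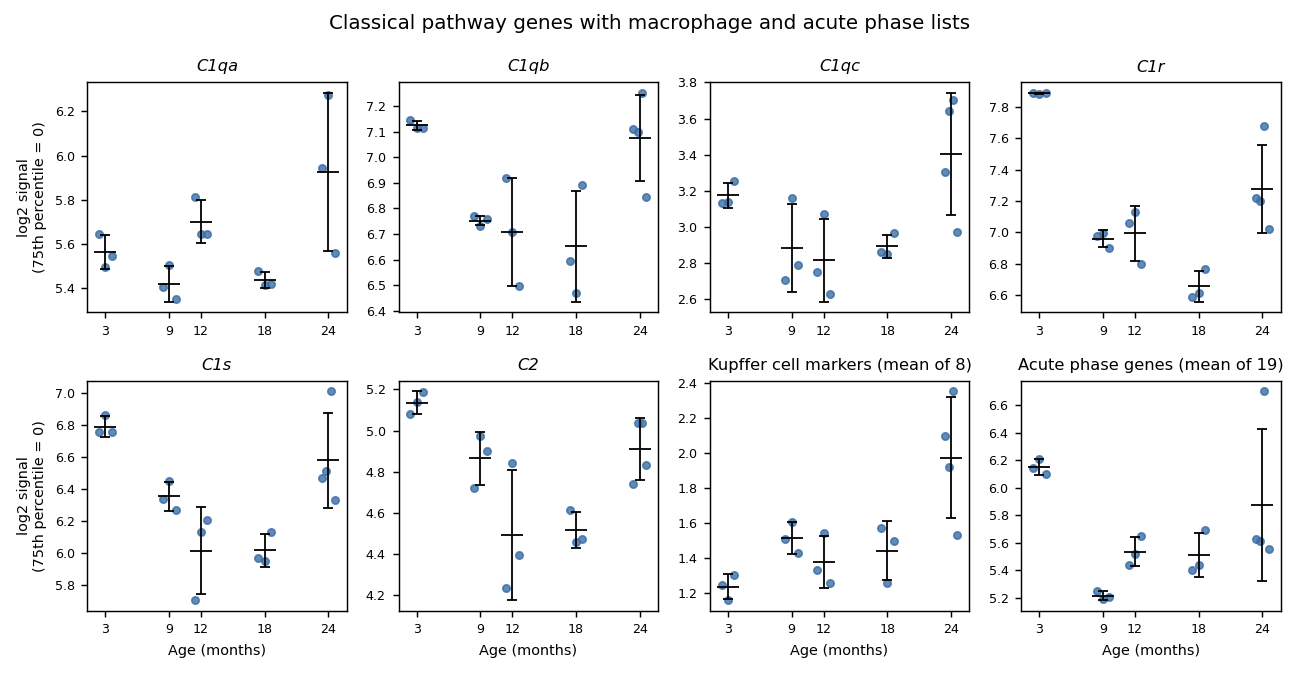
Log2 signal (75th percentile of the array = 0) against age in months for 6 genes of the classical pathway, for the mean of 8 Kupffer cell markers and for the mean of 19 acute phase genes. Points are arrays, and lines with bars are the mean ± SD of an age; C1r is highest on the 3-month arrays, and 24-month replicate 3 is the highest 24-month array for C1qa, C1qb, C1qc, C1r, C1s and both lists.

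The lectin route reads sugars on microbes through mannose-binding lectins. Mbl2, mannose-binding lectin C, had the largest fall between 3 and 24 months among the members' brightest probes. It read 2.78, 2.87 and 2.82 at 3 months and 2.71, 2.90 and 2.68 at 9 months. Values then were 1.65, 2.24 and 2.12 at 12 months, 2.29, 1.92 and 1.70 at 18 months, and 1.51, 1.59, 1.06 and 2.16 at 24 months. Both young ages lay above every array of 12 to 24 months. The change from 3 to 24 months was -1.24 (SE 0.22), a 2.37-fold decrease, with a limma adjusted p of 0.00254. It held without any single array and was 0.0739 with slide as a block. No single step between neighbouring ages was called. Mbl1, the second lectin, ran from 3.93 to 4.79 and Masp1, a lectin-bound protease, from 3.49 to 4.54, and neither was called. Masp2, the protease that cleaves C4 and C2 in this route, ran from 5.74 to 6.55 without a call, but 1 of its 4 probes fell by 0.55 from 9 to 12 months (limma adjusted p over probes = 0.024).

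The convertases are the enzymes that cleave C3 and C5. Of 5 members of the convertases and their amplification, 4 had a negative change from 3 to 24 months. These were C2, C3, C4a and Cfb, of which C3 and Cfb were called. Cfd alone had a positive change, also called. Cfd, factor D or adipsin, cuts factor B in the alternative pathway and is made chiefly by adipocytes in rodents. It read 2.09, 2.06 and 2.03 at 3 months and 3.59, 3.36 and 3.62 at 9 months. At 12 months it read 4.38, 3.41 and 4.28, at 18 months 3.38, 3.50 and 3.43, and at 24 months 4.09, 3.02, 4.50 and 3.70. Each array after 3 months was above each 3-month array. Cfd rose by 1.46 from 3 to 9 months (SE 0.31; limma adjusted p = 0.0139). By 24 months the rise was 1.76 (SE 0.29), or 3.39-fold, with a limma adjusted p of 0.00135. The 24-month call held without any single array and had an adjusted p of 0.0929 with slide as a block. The 9-month call was lost without any 3-month array and without 9-month replicate 1 or 3. Among 5 adipocyte markers, Adipoq and Plin1 were well above background on 1 array and Lep on 0. The 2 measured ones, Fabp4 and Cidec, had means from -0.25 to -0.08 at 3 months and from -1.46 to -0.92 at 9 months. Fabp4, well above background on 7 arrays, fell by 2.55 in that step, while Cidec changed by 0.41 (limma adjusted p = 0.513).

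Cfb, factor B, moved the other way. It read 7.59, 7.58 and 7.37 at 3 months, 7.11, 7.17 and 7.21 at 9 months, 7.30, 7.37 and 7.54 at 12 months and 7.31, 7.37 and 7.30 at 18 months. At 24 months it read 6.94, 6.90, 6.88 and 7.09, below every other array. Cfb fell by 0.56 from 3 to 24 months (SE 0.11; limma adjusted p = 0.00327, and 0.116 with slide as a block) and by 0.37 from 18 to 24 months (SE 0.11; limma adjusted p = 0.0187, and 0.397 with slide as a block). Without any single array the fall from 3 months stayed called, while the later step lost its call without 18-month replicate 1 or 3.

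C3, on which all routes meet, read 10.14, 10.17 and 9.92 at 3 months and 9.53, 9.62, 9.27 and 9.97 at 24 months. The ages overlapped at 24-month replicate 4. The change was -0.48 (SE 0.15; limma adjusted p = 0.0498, and 0.314 with slide as a block), and its call held only without 12-month replicate 2 or 24-month replicate 4. C4a, the substrate of C1s, had a 3-month mean of 6.11 ± 0.03 (SD, n = 3) and a 9-month mean of 5.11 ± 0.15 (SD, n = 3). Its change of -1.01 had an SE of 0.30 and a limma adjusted p of 0.0729, and limma's F test over the ages gave 0.0406. Single arrays of C4a stood off, 4.17 on 12-month replicate 2 and 6.32 on 24-month replicate 3. C2, the enzyme part of the classical convertase, was lowest at 12 months, at 4.49 ± 0.32 (SD, n = 3), while its 3-month mean was 5.14 ± 0.05 (SD, n = 3), and was called by limma's F test alone (adjusted p = 0.0153). With slide as a block that p was 0.0906, with normexp 0.235 and with the replicate number as a block 0.0526. The F test call of C3 held only without 3-month replicate 3, 12-month replicate 3 or 24-month replicate 4. That of C4a was lost without any array of 3, 9 or 18 months and without 24-month replicate 1.

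**Figure D3:**
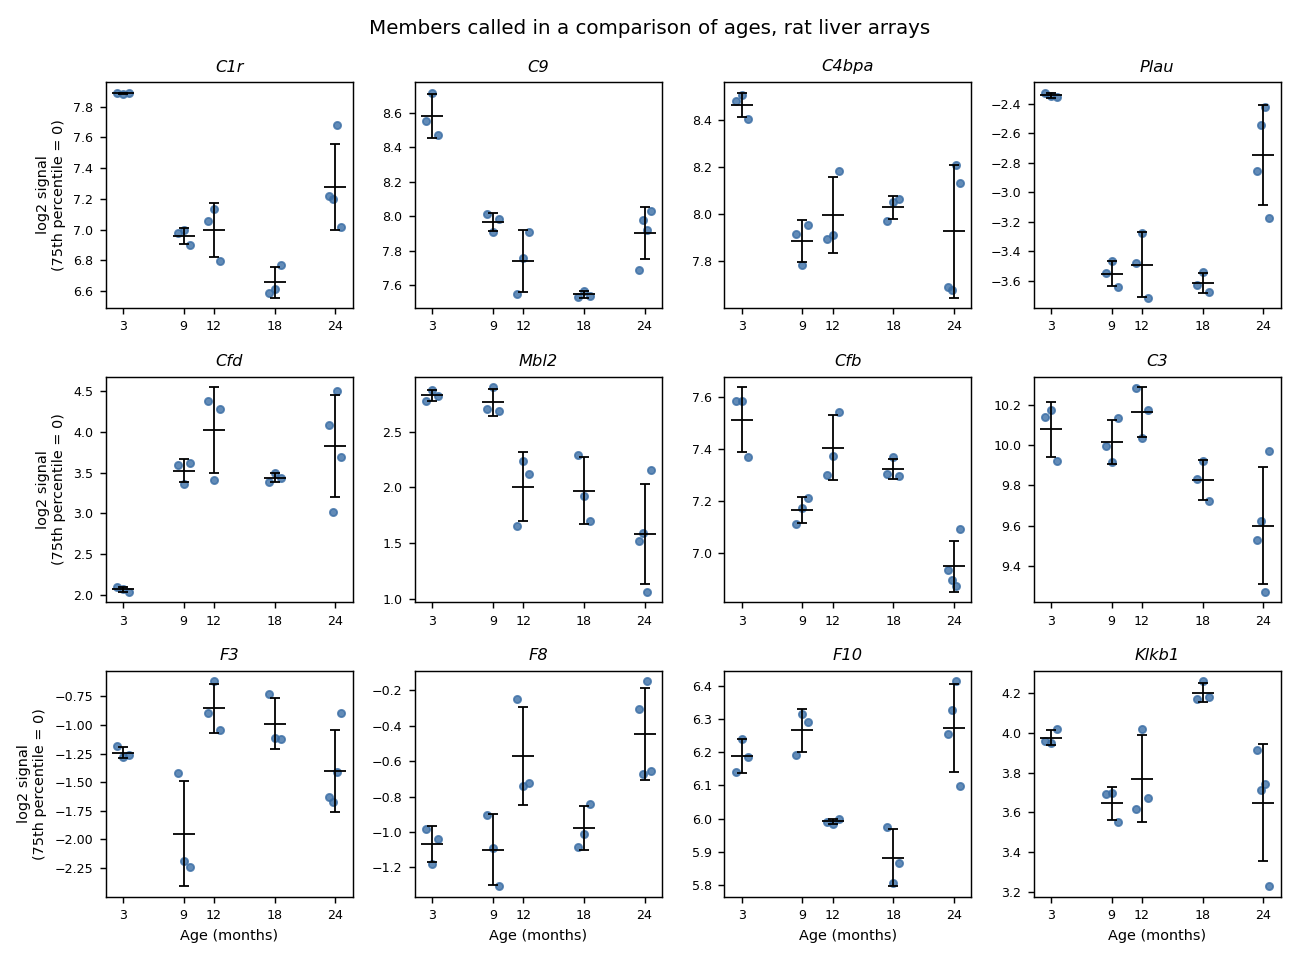
Log2 signal (75th percentile of the array = 0) against age in months for 12 members called in a comparison; points are arrays, and lines with bars are the mean ± SD of an age. C1r, C9, C4bpa and Plau are highest at 3 months, Cfd is lowest there, and Cfb is lowest at 24 months.

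The terminal pathway assembles the membrane pore. C9, the subunit that polymerises into the ring of the pore, read 8.56, 8.72 and 8.47 at 3 months. It then read 8.01, 7.91 and 7.98 at 9 months, 7.55, 7.76 and 7.91 at 12 months, 7.54, 7.57 and 7.54 at 18 months, and 7.69, 7.98, 7.92 and 8.03 at 24 months. All 3-month arrays lay above all others. C9 fell by 0.61 to 9 months (SE 0.13; limma adjusted p = 0.0126), a call lost without 3-month replicate 1 or 2 or 9-month replicate 2 or 3. The change to 24 months was -0.68 (SE 0.12; limma adjusted p = 0.00211, and 0.0778 with slide as a block), and it held without any single array. From 18 to 24 months C9 rose by 0.36 (limma adjusted p = 0.0411, and 0.464 with slide as a block). That call held only without 9-month replicate 2, a 12-month array or 24-month replicate 1. C8b, a chain of C8, was called by the F test alone (limma adjusted p = 0.0371, and 0.196 with slide as a block). Its highest mean was that of 9 months, 5.37 ± 0.18 (SD, n = 3), and its lowest that of 18 months, 4.80 ± 0.10 (SD, n = 3). The call held only without 9-month replicate 1, 12-month replicate 2 or 3, or 24-month replicate 1, 3 or 4.

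The other terminal genes were not called. C5, the precursor of the C5a signal, was 3.49, 3.61 and 3.58 at 3 months and 2.79, 2.34 and 2.75 at 9 months, a change of -0.93 with a limma adjusted p of 0.0569. A second C5 probe changed by -0.79 in that step (limma adjusted p over probes = 0.0472). C6 ran from 4.90 to 6.0, C8a from 6.24 to 6.84 and C8g from 7.85 to 8.39.

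Among the inhibitors, C4bpa, the alpha chain of C4b-binding protein, read 8.48, 8.51 and 8.41 at 3 months and 7.92, 7.78 and 7.95 at 9 months. At 24 months it read 7.69, 7.68, 8.21 and 8.13, and again no array reached the 3-month values. It fell by 0.58 to 9 months (SE 0.15; limma adjusted p = 0.0435) and by 0.54 to 24 months (SE 0.14; limma adjusted p = 0.0239, and 0.198 with slide as a block). The first call was lost without any array of 3, 9 or 18 months and without 12-month replicate 3, and the second without any 3-month array and without 24-month replicate 1 or 2. The F test call of C4bpa was lost without any array of 3, 9 or 18 months. C4bpb, the beta chain, ran from 6.75 to 7.81 and was not called, nor was Cfi, which degrades C3b and C4b (8.88 to 9.91), or Serping1, the C1 inhibitor (9.45 to 10.19).

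Of 19 acute phase genes outside the set, all measured, 5 fell from 3 to 9 months and 0 rose, beside 3.2% and 1.94% of all genes. By rising adjusted p the 5 were Il1rn, Il6r, Orm1 (an acid glycoprotein), Hpx (hemopexin) and Stat3. Of the other 14, none called, 10 had a negative and 4 a positive change. The mean of the 19 ran from 6.10 to 6.21 on the 3-month arrays and from 5.19 to 5.25 at 9 months. At 24 months it read 5.63, 5.62, 6.70 and 5.55, highest on replicate 3. Of 5 measured neutrophil markers, 3 fell from 3 to 9 months, with means from 0.10 to 0.47 and then from -3.50 to -2.55. The part of either in the complement result was not tested. Within slide 1, where all 3-month arrays met 9-month replicate 2, C1r changed by -0.89, C9 by -0.67, C4bpa by -0.68, Plau by -1.13 and Cfd by 1.30. All 5 were past the threshold there (limma adjusted p from 0.00745 to 0.0449), as were 12 members in all, beside 17.2% of all genes. The 9-month age is 1 array in that fit and was assumed to vary like the 3-month arrays, so its own spread was not measured. With slide as a fixed block 6 members, beside 8.8% of all genes, were called, and Cfd was not (limma adjusted p = 0.0676).

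Of 12 coagulation factors the F test called 5, beside 37.5% of all genes: F3, F8, F10, Kng1 and Klkb1. F3, tissue factor, starts coagulation by binding factor VII. It read -1.19, -1.28 and -1.26 at 3 months and -1.42, -2.19 and -2.24 at 9 months. The 12-month values were -0.90, -0.62 and -1.04, and none overlapped those of 9 months. F3 rose by 1.10 from 9 to 12 months (SE 0.24), or 2.14-fold, with a limma adjusted p of 0.0179. This call and that of the F test were lost with normexp background correction. They were also lost without 9-month replicate 2 or 3, and the count of called members in this step was then 0. It was 3 without 12-month replicate 3 or 24-month replicate 3 or 4. Within slide 2, the change was 0.93 with a limma adjusted p of 0.191, within scan day 1 it was 1.05 (0.126), and with slide as a fixed block it was 0.93 (0.0514).

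With slide as a fixed block 14 members were called from 9 to 12 months, 10 of them lower, or 29.8% beside 27.1% of all genes. Within slide 2, 5 were past the threshold, all lower, beside 14.5% of all genes, and within scan day 1 it was 6, with 5 lower, beside 13%. In both of these fits the 12-month age is 1 array, assumed to vary like those of 9 months, so they compare that array with the others. In each of these the 12-month age was represented on slide 2 by replicate 2, which stood apart from the other arrays. It was the lowest of all 16 arrays for 12 members, among them C4a at 4.17, F13b at 1.86, Fga at 8.51 and Fgg at 8.61, and the highest for 4: C3, F2, Fgb and Proc. From 12 to 18 months, 1 member was called without 12-month replicate 3.

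F8, factor VIII, the cofactor of factor IX, read -0.98, -1.18 and -1.04 at 3 months and -1.08, -1.01 and -0.84 at 18 months. At 24 months it read -0.30, -0.67, -0.15 and -0.65, above all of both ages. The rise was 0.62 from 3 months (SE 0.17; limma adjusted p = 0.0248) and 0.53 from 18 months (SE 0.17; limma adjusted p = 0.0303), with p of 0.241 and 0.437 with slide as a block. The first was lost without any 3-month array or 24-month replicate 1 or 3, and the second without 18-month replicate 1 or 3 or 24-month replicate 1 or 3. Both calls, and that of the F test for F8, were lost with normexp background correction. Of 8 markers of liver endothelium, Stab2 and Clec4g rose in both comparisons and Cdh5 fell against 3 months. Of all genes, 4.24% rose and 9.09% fell against 3 months, and 10.8% rose and 15% fell against 18 months. The mean of the 8 ran from 0.22 to 0.54 at 3 months, 0.15 to 0.35 at 18 months and 0.39 to 0.96 at 24 months. Its part in the F8 result was not tested.

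F10, which cleaves prothrombin, read 5.98, 5.81 and 5.87 at 18 months and 6.25, 6.33, 6.41 and 6.10 at 24 months. It rose by 0.39 (SE 0.10; limma adjusted p = 0.0122, and 0.304 with slide as a block), a call lost without 18-month replicate 3. F11, which activates factor IX, read 2.95, 3.31 and 3.47 against 2.92, 2.79, 2.19 and 2.81 and fell by 0.56 (SE 0.18; limma adjusted p = 0.0315, and 0.357 with slide as a block). That call was lost without 18-month replicate 3 or 4 or 24-month replicate 3, the lowest array, and without the 3 arrays that stood apart (limma adjusted p = 0.0684). Klkb1, plasma prekallikrein, read 4.17, 4.26 and 4.18 against 3.91, 3.71, 3.74 and 3.23 and fell by 0.55 (SE 0.15; limma adjusted p = 0.0159, and 0.259 with slide as a block), a call lost without 18-month replicate 3. The 18-month and 24-month arrays did not overlap for these 3 genes. The F test call of F10 was lost without 3-month replicate 2 or 3, 9-month replicate 3 or 18-month replicate 3 or 4. That of Klkb1 was lost without any array of 3, 9 or 18 months, 12-month replicate 4 or 24-month replicate 2.

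The probe named Kng1, for kininogen, carries an accession that RefSeq now gives to Kng2, so its values belong to that entry. Another probe, which the array names Kng2, carries a different accession that was not matched, and it changed by -0.03 from 3 to 9 months (limma adjusted p = 0.956). The probe named Kng1 read 9.24, 9.28 and 9.07 at 3 months and 8.35, 8.42 and 8.37 at 9 months. Its change of -0.82 (SE 0.23) missed the threshold with a limma adjusted p of 0.0532, while the F test gave 0.0358 (0.0638 with slide as a block), a call lost without any 3-month or 9-month array, 18-month replicate 3 or 24-month replicate 2. A second probe of the same accession changed by -0.73 (limma adjusted p over probes = 0.0211).

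The remaining factors were not called. F2, prothrombin, ran from 8.66 to 10.03 over the 16 arrays, F5 from 3.35 to 4.17 and F7 from 1.40 to 2.51. F9 ran from 6.38 to 6.85, F12 from 7.18 to 8.51 and F13b, the carrier chain of factor XIII, from 1.86 to 3.25. A second F9 probe fell by 0.79 from 18 to 24 months (limma adjusted p over probes = 0.0449), where the brighter probe changed by -0.17.

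Fibrinogen, whose 3 chains are encoded by Fga, Fgb and Fgg within 35.8 kb of chromosome 2 as the probes lie, was called in no comparison. Fga ran from 8.51 to 9.66, Fgb from 9.51 to 10.30 and Fgg from 8.61 to 9.85. Their changes from 3 to 24 months were -0.43, -0.30 and -0.41, with limma adjusted p of 0.192, 0.194 and 0.28. All 3 were negative in that comparison.

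For Fgb, however, the result depended on the probe. Probe A_44_P226859, the sequence without an rn4 position, read 5.11, 4.98 and 4.73 at 3 months and 4.81, 4.06 and 4.73 at 9 months. It went on to 4.08, 5.88 and 6.42 at 12 months, 6.35, 6.05 and 6.98 at 18 months, and 3.09, 2.84, 3.38 and 3.12 at 24 months. The 24-month arrays were the lowest and the 18-month arrays did not overlap them. It fell by 3.35 from 18 to 24 months, a 10.2-fold decrease with a limma adjusted p over probes of 7.7e-05. From 3 to 24 months it changed by -1.84 (0.0119). Probes A_43_P10037 and A_44_P1044835 changed by -0.14 (0.51) and -0.06 (0.821) from 18 to 24 months. All 3 probes were well above background on all 16 arrays.

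**Figure D4:**
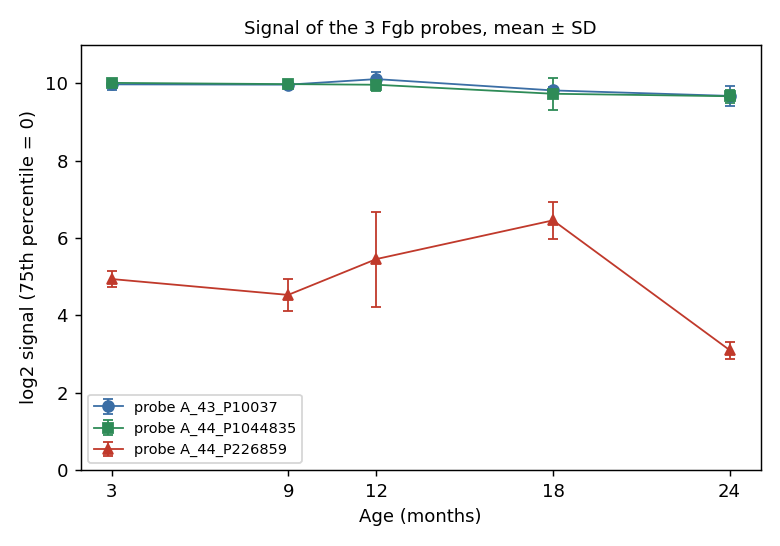
Mean ± SD of log2 signal (75th percentile of the array = 0) against age in months for the 3 probes named Fgb; n = 3 at each age and 4 at 24 months. A_43_P10037 and A_44_P1044835 stay between means of 9.67 and 10.11, while A_44_P226859 moves from 6.46 at 18 months to 3.11 at 24 months.

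In fibrinolysis, Plau, the urokinase that turns plasminogen into plasmin, was the one member called. It read -2.32, -2.34 and -2.36 at 3 months and -3.55, -3.47 and -3.64 at 9 months. Values of -3.48, -3.28 and -3.71 at 12 months and -3.62, -3.54 and -3.68 at 18 months followed, then -2.86, -2.54, -2.42 and -3.17 at 24 months. The 3-month arrays were above every other array, and the 24-month arrays above all of 9 to 18 months. Plau fell by 1.21 to 9 months (SE 0.17), a 2.31-fold decrease with a limma adjusted p of 0.00165. From 18 to 24 months it rose by 0.87 (SE 0.16; limma adjusted p = 0.00155, and 0.137 with slide as a block). Both calls held without any single array. The Plau probe lay below the 75th percentile on every array, and with normexp background correction its changes were -0.40 (limma adjusted p = 1) and 0.53 (0.325).

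Plg, plasminogen, ran from 3.92 to 5.23, Serpinf2, the plasmin inhibitor, from 6.12 to 6.57 and Cpb2, which protects fibrin from plasmin, from 5.10 to 5.77. The anticoagulants also had no call. Serpinc1, antithrombin, ran from 5.38 to 6.32, Serpind1, heparin cofactor, from 5.65 to 6.25, and Proc, protein C, from 7.81 to 8.79. Pros1, protein S, ran from 2.42 to 3.01. A second Pros1 probe fell by 0.53 from 18 to 24 months (limma adjusted p over probes = 0.0194), where the brighter probe changed by -0.16.

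Outside the set, 18 of 25 further complement genes were measured. Of these, 1 rose and 4 fell from 3 to 9 months, beside 1.94% and 3.2% of all genes. From 3 to 24 months 2 rose and 4 fell, beside 4.24% and 9.09%. Vsig4, the complement receptor of Kupffer cells, rose by 1.65 and by 2.03 (limma adjusted p = 0.00334 and 0.000209). C3ar1, the C3a receptor, fell by 1.67 and by 1.0 (0.000767 and 0.00417), and Fcnb, a ficolin that is also among the neutrophil markers, fell by 2.76 and by 1.45 (0.000482 and 0.00722). From 18 to 24 months 5 of 18 rose and 0 fell, beside 10.8% and 15% of all genes. Among the 5, Itgb2, the beta chain of complement receptors, rose by 1.40 (0.00103), Cfp, properdin, by 0.77 (0.00263) and Colec10, a collectin, by 0.71 (0.00638).

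Of 30 further genes of coagulation and fibrinolysis, 20 were measured. From 3 to 9 months 1 rose and 5 fell, from 3 to 24 months 1 rose and 4 fell, and from 18 to 24 months 5 rose and 1 fell. In that order, the shares of all genes were 1.94% higher and 3.2% lower, 4.24% and 9.09%, and 10.8% and 15%. S100a10 and Anxa2 form the cell surface receptor for plasminogen. S100a10 fell by 1.62 from 3 to 9 months and by 1.08 from 3 to 24 months (limma adjusted p = 0.000144 and 0.000366). Anxa2 fell by 1.33 from 3 to 9 months and rose by 1.10 from 18 to 24 months (0.00189 and 0.000636). Serpina5, the protein C inhibitor, rose by 1.71 from 3 to 24 months (0.00786). Serpine2, a thrombin inhibitor, rose by 0.67 (0.00349) and Hrg, histidine-rich glycoprotein, by 0.45 (0.0101) from 18 to 24 months.

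Promoter sequence was on hand in the RefSeq table (build GRCr8) for 35 of 48 members, as 250 bases before and 50 after the start of the gene. Those of C1r, C4bpa and Plau are shown because these members fell together from 3 to 9 months. Capitals mark matches, on either strand, to TTGCNNAA (a form of the C/EBP site), GTTAAT (part of the HNF1 site) or TTCNNNGAA (the STAT site), factors known to act on liver plasma protein genes. No 2 of these matches overlap in the sequences printed.
C1r, chr4:159098763-159099062, plus strand: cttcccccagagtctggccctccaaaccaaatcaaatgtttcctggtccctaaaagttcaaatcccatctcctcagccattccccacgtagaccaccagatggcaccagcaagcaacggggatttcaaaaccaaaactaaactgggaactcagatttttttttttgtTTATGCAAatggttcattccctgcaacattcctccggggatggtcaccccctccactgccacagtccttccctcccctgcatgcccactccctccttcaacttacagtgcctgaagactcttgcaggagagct
C4bpa, chr13:44663422-44663721, minus strand: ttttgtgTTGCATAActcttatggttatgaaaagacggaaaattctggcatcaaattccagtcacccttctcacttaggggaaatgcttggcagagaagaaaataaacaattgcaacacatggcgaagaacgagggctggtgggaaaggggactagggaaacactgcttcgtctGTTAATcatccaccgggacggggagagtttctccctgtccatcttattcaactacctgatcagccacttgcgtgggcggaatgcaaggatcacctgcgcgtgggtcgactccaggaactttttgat
Plau, chr15:3511938-3512237, minus strand: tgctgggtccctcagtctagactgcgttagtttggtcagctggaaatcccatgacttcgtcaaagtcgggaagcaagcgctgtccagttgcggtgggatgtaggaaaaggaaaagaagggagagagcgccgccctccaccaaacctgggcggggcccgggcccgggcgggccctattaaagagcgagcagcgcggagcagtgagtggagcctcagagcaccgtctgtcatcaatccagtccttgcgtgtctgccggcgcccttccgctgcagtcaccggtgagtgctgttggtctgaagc

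The C1r window held 1 C/EBP match with its first base at -83 from the start, and the C4bpa window 1 C/EBP match at -243 and 1 HNF1 match at -76. The Plau window held none of these letters. Over the members, 12 of 35 windows (34.3%) held the C/EBP letters, 10 of 35 (28.6%) the HNF1 letters and 7 of 35 (20.0%) the STAT letters. Over all 27457 promoters of the table the shares were 10.5%, 7.37% and 8.68%. Fga, Fgb and C8a, which were not called, held all 3. A match is a stretch of letters, not a bound site.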

How the data were processed

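Liver mRNA of 16 samples was read on one-colour arrays. Per the file headers, the authors' scanner files hold intensity values from Agilent Feature Extraction 10.7.3.1, with no normalization between arrays, and flags of another kind (other) for background, saturation and outlier spots. The authors also deposited log2 values for the series, normalized in a way the sources used here do not give. These followed the log2 scanner signal (correlation 0.9998) and were used only as an alternative.

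Each array's 75th percentile was subtracted from the log2 of the processed signal. Control spots were dropped, spots of a probe averaged, and outlier spots treated as missing (43 values). Probes well above background on every array of some age were kept (25698 of 41012). A gene name was represented by its brightest kept probe.

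A mean per age was fitted with limma 3.58.1 (R 4.3.3, data.table version 1.17.8), two-sided, with Benjamini-Hochberg adjustment over all genes and a threshold of 0.05. Probe-level p-values were adjusted over kept probes. The procedure was tested on simulated data. Noise there was drawn independently for each array, without the correlation of arrays on a slide (0.687 in the data). That test therefore cannot show how calls behave under such a correlation. Members, gene lists and the rule for naming genes (each called member, and up to 6 called genes of the other lists in a comparison, by adjusted p) were chosen with earlier results of these data known. Samples with the same replicate number were not treated as pairs. Their deviations correlated from -0.30 to 0.12, beside -0.27 to 0.26 for samples with other numbers. Alternatives were other normalizations, filters and blocks, and leaving out each array. Fits within a slide or scan day, and without the 3 arrays that stood apart, were chosen after seeing the data. Of the further coagulation and fibrinolysis genes, 1 is not reported here by name. Positions are in rn4, per the file headers. Python 3.11.15, with pandas 2.3.3 and matplotlib 3.10.9, made the figures.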

Additional observations from a re-analysis of the deposited data

Results flagged for a closer look

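At 24 months, the age with 4 arrays, 46 members with all values were checked for an array far from the others, and 4 had one (8.7%), where chance gives about 1 in 20. C4a read 6.32 on replicate 3, against 5.30 to 5.47 on the others. F7 read 2.51 on replicate 3, against 1.60 to 1.62. Masp2 read 5.74 on replicate 3, against 6.27 to 6.32. Fgb read 10.05 on replicate 4, against 9.51 to 9.60. Replicate 3 was the highest 24-month array for 20 of these 46 members and the lowest for 15, and replicate 4 for 19 and 12.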

How the results depend on the processing

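Counts of called members are given in the order any age difference, 24 against 3, 9 against 3, 12 against 9 and 24 against 18 months, which were 18, 8, 5, 1 and 12. With normexp they were 6 (any age), 3 (9 against 3 months), 0 (12 against 9 months) and 1 (24 against 18 months). Over all genes, calls for any age difference also fell with normexp, so that drop was not limited to the members. For 24 against 18 months, quantile normalization and the series table each gave 6, and no filter gave 7. No filter gave 11 for any age. The replicate number as a block gave 10 for any age, 0 for 12 against 9 months and 5 for 24 against 18 months. Calls over all genes for any age difference were also fewer with no filter and with the replicate number as a block. Slide as a random block gave 0, 9, 13 and 0 for 24 against 3, 9 against 3, 12 against 9 and 24 against 18 months. The shares of all genes were then 1.45%, 9.57%, 22.4% and 4.55%. Slide as a fixed block gave 14 for 12 against 9 months, and scan session gave 13 there and 6 for 24 against 18 months. A fit of the compared ages alone gave 4, 14, 0 and 3. Within slide 1, 9 against 3 months gave 12, and 12 against 9 months gave 5 within slide 2 and 6 within scan day 1, each with 1 array of the later age. Leaving out 1 array gave 9 to 27 for any age, 4 to 15, 2 to 8, 0 to 3 and 2 to 16 for the comparisons, and 0 to 1 for 18 against 12 months. At both ends of the range for any age, the calls over all genes moved the same way. Without the 3 arrays that stood apart the counts were 34, 21, 15, 5 and 17. Counts under other alternatives run stayed within 1.5 times. The cause of these shifts was not tested. Over the called genes and the alternatives not chosen after seeing the data, 797 values stayed called, 335 lost the call and 0 changed direction. The F test values among them have no direction to change. Leaving out an array of an age outside a comparison cannot alter its change, so for those values the direction was fixed in advance. The 18-month and 24-month arrays share a slide with no other age, so slide could be fitted at these ages only as a random block. The 24-month arrays also share a scan day with no other age. The number of arrays limits precision. Normexp background correction ended 17 of the 26 calls between pairs of ages, among them those of Plau, F3 and F8.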
